A study of Rattus norvegicus with 6 samples.

Results

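Forkhead (Fox) and Sox genes encode transcription factors, and 53 of them were measured in the rat heart primordium just before and just after its first beats. The members were every gene whose name on the array was a Fox or Sox symbol. That rule used no measured values, although the members were chosen with earlier results of these data known. They comprised 38 forkhead and 15 Sox genes among 26269 gene names, read by 65 of 30367 probes. The tissue was the heart primordium of E10 embryos of the strain labelled Wister rat. The pre-heartbeat group had primordia with a flat centre, the post-heartbeat group had primordia with a raised centre, and each group held 3 samples described as biological replicates. The labels name no transgene or treatment for either group, and the number of primordia in each RNA sample was not given in the sources used here. Total RNA was labelled with Cy3 and hybridised to 1-colour Agilent arrays, 1 array for each sample.

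Forkhead factors share a winged-helix DNA-binding domain, and Sox factors share an HMG box related to that of the sex-determining gene Sry. In the early embryo FoxA factors mark endoderm, FoxC factors act in mesoderm and its derivatives including the outflow tract, and FoxH1 partners with Smads downstream of Nodal. SoxF factors act in endothelium, SoxB1 in the neural plate, SoxE in neural crest and cartilage, and SoxC widely in progenitor cells.

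Signal was expressed as log2 of the processed intensity less the 75th percentile of that array, so that 0 is the 75th percentile and each unit is a doubling. Where several probes read one gene, the brightest was used. Levels of different probes cannot be compared as levels of transcript, and in a dissected tissue fewer cells of a type and less RNA per cell cannot be told apart. The tests covered probes that every array of 1 or both groups showed well above background. The arrays came from 2 slides. Pre-heartbeat array 1 and post-heartbeat arrays 1 and 2 were on slide 1, and the other arrays were on slide 2, so each group spanned both slides. Slides split along the leading principal component (60.3% of variance) and groups along the next (16.6%). For that reason each difference is given without slide and, where it matters, with slide as a block. The 22 listed genes of cardiac muscle cells were all tested, and 21 had higher means after heartbeat initiation. Of these, 4 rose at an adjusted p under 0.05 in limma, namely Myl2, Pln, Nppa and Tnni3, by log2 values of 3.46, 2.39, 1.84 and 1.39. A total of 10 rose with slide as a block, adding Myl3, Myh7, Mybpc3, Myl4, Myh6 and Actn2.

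Of the 53 forkhead and Sox genes, 27 were well above background on all 6 arrays, 11 on some arrays and 15 on none. By its brightest probe, every FoxA, FoxC, FoxH, FoxK, FoxM and SoxB1 member measured was above background on all 6 arrays. A second, dimmer Foxa1 probe was above background on no array. In the other subfamilies, no array detected Foxd3, Sox8 or Sox9, which are genes of neural crest, nor Foxs1, Foxl2, Foxe3 or Foxq1. Sox10, also a gene of neural crest, was above background on all 6 arrays. Of 17 other listed genes of neural crest on the array, 11 were above background on all 6 arrays, 5 on some and 1 on none. Sox9 lay between -7.90 and -6.28 on the log2 scale over the 6 arrays. The dimmest probe well above background lay between -7.38 and -6.77 on the same arrays, so the signal of Sox9 sets only an upper bound. Sox17, which marks endoderm and early endothelium, was above background on 2 pre-heartbeat arrays and 1 post-heartbeat array and was not tested. Foxf1 and Foxo1, which act in splanchnic mesoderm and in insulin signalling, were not found under their symbols and were not analysed here, although a probe described as similar to Foxf1 is given below with the FoxC genes.

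**Figure D1:**
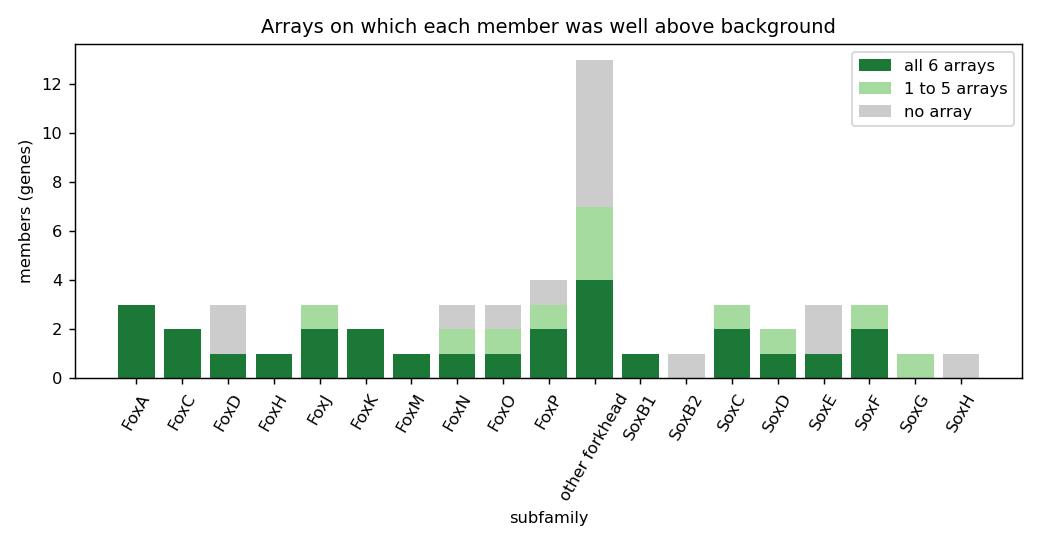
Number of members in each forkhead and Sox subfamily (y axis, genes) by how many of the 6 arrays showed the gene well above background. Each gene is read by its brightest probe. All members of FoxA, FoxC, FoxH, FoxK, FoxM and SoxB1 were above background on all 6 arrays, and 15 of 53 members were above background on none.

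No forkhead or Sox gene passed an adjusted p of 0.05 between the groups. Of the 31 tested members, 0 rose and 0 fell in limma with Benjamini-Hochberg adjustment over all 19299 tested probes, where 27 probes (0.14%) passed, 0.119% higher and 0.0207% lower. By the brightest probe of each gene, the count at an unadjusted p under 0.05 was also 0 of 31, against 7.01% of all tested probes. A second, dimmer probe of Foxj2 was under 0.05 without adjustment and is given below. The selection of the study's methods, a 1.5-fold change and an unadjusted p under 0.05 without limma, took 0 of 31 members and 3.04% of all tested probes when counted in either direction, whereas the methods took increases only. Means were higher after heartbeat initiation for 18 members and lower for 13, with a median log2 difference of 0.08 against -0.03 over all tested probes. Of these members, Foxj1, Foxo3 and Sox12 entered the tests only through the post-heartbeat group, in which they were brighter. Sox6 entered only through the pre-heartbeat group. Over the 27 members above background on all 6 arrays the median was 0.05, against -0.03 over all probes so filtered. With slide as a block the tally of the 31 members turned to 13 higher and 18 lower, with a median of -0.07 against -0.02. In that fit the numbers of called members stayed at 0 and 0, while 1.62% of all tested probes were called, and 2 members, Foxc1 and Sox6, had an unadjusted p under 0.05 against 9.66% of all probes.

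The precision of these values differed widely between genes. The 95% interval lay within a 2-fold change in either direction for 20 of the 31 members, and for 27 with slide as a block. Intervals that reached past 2-fold belonged to genes such as Foxc1, Foxc2, Foxp4, Foxj1, Sox2, Sox6 and Sox18, for which a change of that size could not be told from none without slide. The values of the 2 groups did not overlap for 2 members, Foxp1 and Foxe1, against 11.5% of all tested probes. With 3 arrays a group, the exact two-sided permutation p of a single gene cannot go below 0.1.

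**Figure D2:**
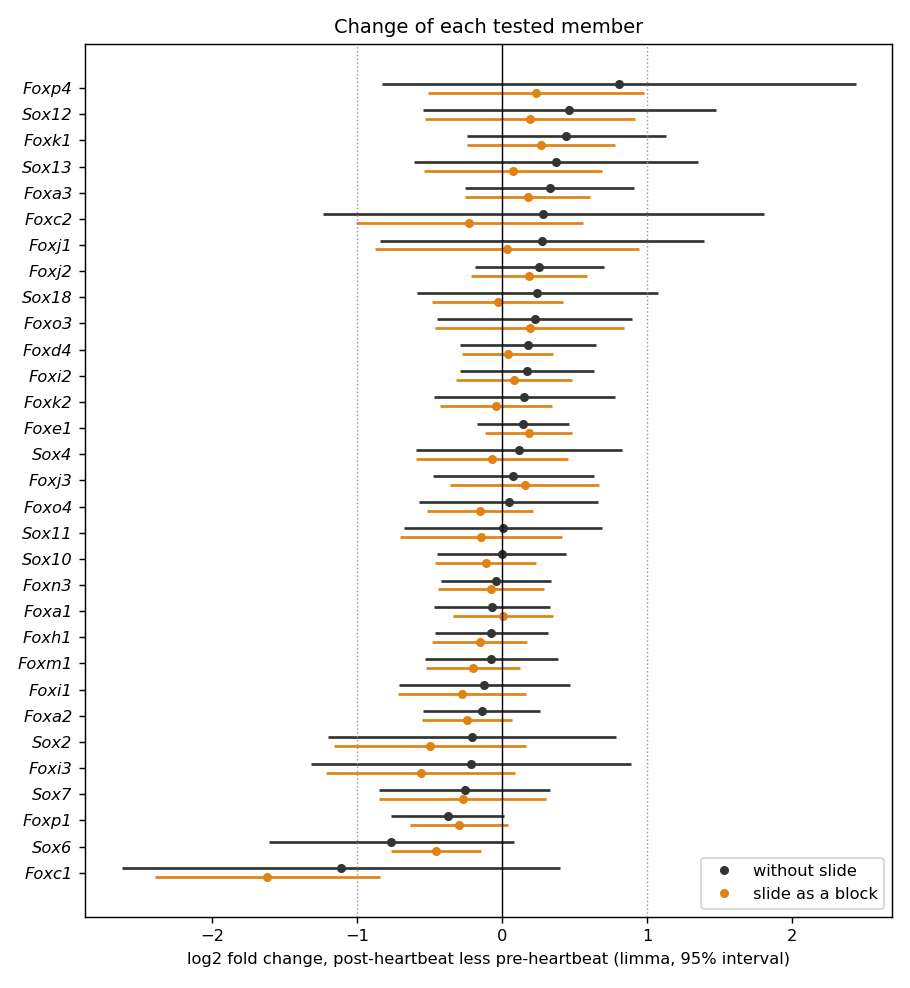
Log2 fold change of each of the 31 tested members (post-heartbeat less pre-heartbeat) with its 95% interval from limma, without slide (black) and with slide as a block (orange). Dotted lines mark a 2-fold change. Foxc1 is the lowest in both fits, at -1.11 and -1.62, and the orange intervals are shorter for most genes.

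The pair of FoxC genes varied strongly between arrays, and Foxc1 had the lowest difference between groups of the 31 tested members. Foxc1 and Foxc2 are closely related factors of paraxial, head and pharyngeal mesoderm, and loss of either affects the aortic arch and outflow tract. The probes that read them share little sequence, which bears on whether one transcript could be read by both. A 30-base stretch of each 60-base probe is shown 5′ to 3′, with the longest run of bases shared by the full probes, 6 bases, in capitals.
Foxc1 probe, bases 1 to 30: tgtcaatcAGACTTggggagatggcggttt
Foxc2 probe, bases 31 to 60: cctaaaacacccaaagAGACTTtaaaattt
In the best alignment without gaps the full probes matched at 21 of 60 positions. The Foxc1 probe lies at chr17:39026324-39026383 on the minus strand of rn4 in the array's annotation, and that of Foxc2 had no position there. The array's files do not say which part of the transcript either probe reads.

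Log2 signals of Foxc1 were 0.14, -2.13 and -0.96 on pre-heartbeat arrays 1, 2 and 3 and -1.23, -2.04 and -3.00 on post-heartbeat arrays 1, 2 and 3. The groups overlapped, because pre-heartbeat array 2 was lower than 2 of the post-heartbeat arrays. The log2 difference was -1.11 ± 0.64 (SE, n = 3 and 3; limma, adjusted p = 0.87). It was -0.55 without pre-heartbeat array 1, -0.65 without post-heartbeat array 3 and -1.68 without pre-heartbeat array 2. With slide as a block it was -1.62, with an adjusted p of 0.068 in limma, the smallest of any member in that fit. Within slide 1 the post-heartbeat mean was lower by a log2 value of -1.78, and within slide 2 by -1.46.

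Foxc2 stood at -0.61, -2.93 and -1.62 on the pre-heartbeat arrays and at -0.67, -1.27 and -2.37 on the post-heartbeat arrays. The groups overlapped completely, and the log2 difference was 0.29 ± 0.64 (SE, limma adjusted p = 0.91), or -0.23 with slide as a block. Both FoxC genes were about 2.9-fold brighter on slide 1 than on slide 2 (2.88-fold for Foxc1 and 2.90-fold for Foxc2; limma, adjusted p = 0.022 for each).

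Since both genes moved together from array to array, their difference within an array was steadier than either signal. Foxc1 less Foxc2 came to 0.75, 0.81 and 0.66 on the log2 scale before heartbeat initiation. It was -0.56, -0.77 and -0.63 on the post-heartbeat arrays. The 2 groups were far apart for their spread, with means of 0.74 ± 0.07 (SD, n = 3) and -0.65 ± 0.10 (SD, n = 3), and the change was -1.39. The sign of each value has no meaning of its own, because 2 probes are compared. The pair was picked after its values were seen, as the first of 465 pairs of tested members by the ratio of the change to the spread, and 40 of those pairs (8.6%) did not overlap between groups. It therefore has no test here. The change was between -1.34 and -1.44 without any single array, and -1.16 when background was subtracted by the normexp method.

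**Figure D3:**
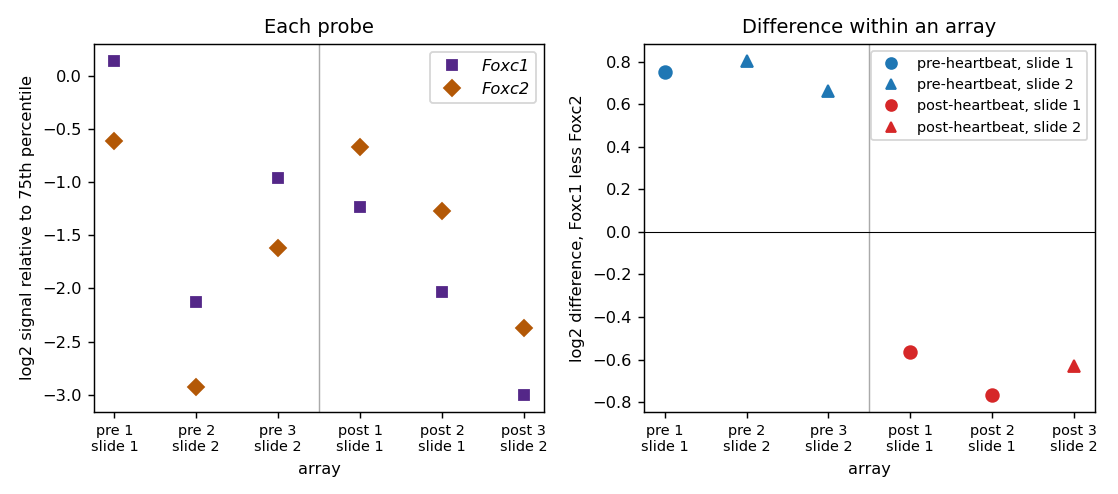
Left, log2 signal of Foxc1 and Foxc2 relative to the array's 75th percentile on each of the 6 arrays. Right, Foxc1 less Foxc2 within each array (log2), coloured by group and shaped by slide. The single signals overlap between groups, whereas the differences lie from 0.66 to 0.81 before and from -0.77 to -0.56 after heartbeat initiation.

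Foxf1 itself was not read under its symbol, but a probe annotated as similar to Foxf1, a factor of splanchnic mesoderm that responds to Hedgehog signals, stood at -0.36, -3.40 and -1.94 on the pre-heartbeat arrays. On the post-heartbeat arrays it stood at -0.77, -0.89 and -1.98. The log2 difference was 0.68 ± 0.73 (SE, limma adjusted p = 0.87), and the probe was 3.32-fold brighter on slide 1 (limma, adjusted p = 0.025), so it too varied with slide more than with group. Among the 9 tested genes listed for Hedgehog signalling, 2 had higher means and 7 lower, with a median log2 difference of -0.31 and none called in limma. With slide as a block all 9 were lower and 1 fell, Ihh, the Indian hedgehog ligand, by a log2 value of -1.11 (limma, adjusted p = 0.027). Without slide, its difference was -0.82 ± 0.35 (SE, limma adjusted p = 0.73). The Hedgehog receptor Ptch1 (-0.31) and the effector Gli3 (-0.74) did not pass in either fit.

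The FoxP genes had opposite signs. Foxp1, which regulates proliferation of heart muscle cells and valve growth, was bright on every array, at 2.16, 2.25 and 2.17 before and 1.60, 1.78 and 2.09 after heartbeat initiation. All 3 post-heartbeat values lay below the 3 pre-heartbeat values, and the log2 difference was -0.37 ± 0.17 (SE, limma adjusted p = 0.75). This was the smallest adjusted p of any member without slide, and within the slides the differences were -0.47 and -0.13. Foxp4, a relative expressed in endoderm-derived and cardiac tissue, ran from -5.0 to -2.79 before and from -4.27 to -2.12 after heartbeat initiation. Its log2 difference of 0.81 ± 0.69 (SE, limma adjusted p = 0.87) shrank to 0.23 with slide as a block, and it was 3.28-fold brighter on slide 1 (limma, adjusted p = 0.013). Foxp3 was above background on 4 arrays and was not tested, and Foxp2 was above background on none.

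The endodermal factors Foxa2 and Foxe1 had narrow intervals that included 0. Foxa2, which opens chromatin in endoderm and floor plate, was at 0.24, -0.22 and -0.03 before and -0.07, -0.04 and -0.31 after heartbeat initiation. The groups overlapped, and the log2 difference was -0.14 ± 0.17 (SE; 95% interval -0.54 to 0.26; limma, adjusted p = 0.87). Foxa1 and Foxa3 differed by -0.07 and 0.33, neither past the test. Foxe1, a factor of the thyroid rudiment, which forms beside the heart, was at 2.87, 2.88 and 3.01 and then at 3.01, 3.01 and 3.17. The groups met at 3.01 without overlapping, and the difference was 0.15 ± 0.13 (SE, limma adjusted p = 0.87), or a 1.11-fold change. Beside these, 18 listed genes of endoderm were tested, of which 5 had higher and 13 lower means (median -0.23). The smallest p in that list belonged to Cdh1, Ttr and Epcam, with log2 differences of -0.47, -0.58 and -0.42, none past the adjusted threshold. With slide as a block 3 of the 18 genes had higher and 15 lower means (median -0.34), and none was called. In that fit 8 had an unadjusted p under 0.05 in limma, against 9.66% of all tested probes.

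Foxh1 had a narrow interval around 0, while some genes of the Nodal pathway had large differences. Foxh1 was at -0.20, -0.35 and -0.26 before and -0.13, -0.30 and -0.60 after heartbeat initiation, a log2 difference of -0.07 ± 0.16 (SE; 95% interval -0.46 to 0.31; limma, adjusted p = 0.91). Of 13 tested genes listed with it, 8 had higher and 5 lower means, with a median of 0.02, and none was called without slide. Lefty2, an inhibitor of Nodal expressed on the left side, was at -0.96, -2.46 and -2.60 before and 0.55, 0.49 and -0.35 after heartbeat initiation. The groups did not overlap, and the difference was 2.24 ± 0.47 (SE, limma adjusted p = 0.18). With slide as a block, Lefty2 rose by 1.83 (adjusted p = 0.0070) and Gsc, a gene of the organiser, fell by 0.85 on the log2 scale (adjusted p = 0.037). Lefty1, the midline inhibitor, was above background on 1 pre-heartbeat array and on all 3 post-heartbeat arrays, from -6.97 to -3.51 and from -3.90 to -2.43. It entered the tests through the group in which it was bright, so its difference with slide as a block, 1.92 (limma, adjusted p = 0.044), is set partly against signal not above background and is given as a value only.

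The FoxM, FoxJ and FoxO genes were compared with lists of genes they regulate or answer to. Foxm1, which drives genes of mitosis, was at 0.58, 0.02 and 0.30 before and 0.37, 0.32 and -0.01 after heartbeat initiation. Its log2 difference was -0.07 ± 0.19 (SE, limma adjusted p = 0.92), and the ranges overlapped. Of the 18 mitotic targets listed, all were above background on all 6 arrays, 4 had higher and 14 lower means (median -0.09), and none was called. The 3 smallest p-values belonged to Cenpf, Kif20a and Bub1, with differences of -0.37, -0.24 and -0.20.

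Foxj1, the regulator of motile cilia, was dim, ranging from -6.90 to -5.16 before and from -5.91 to -5.0 after heartbeat initiation, and was above background on 5 of 6 arrays. Its log2 difference of 0.28 had a 95% interval from -0.84 to 1.39. Among 11 tested genes of motile cilia, 3 had higher and 8 lower means (median -0.05), with Ccdc40, a dynein arm assembly factor, at -0.48 (limma, adjusted p = 0.56), Tekt2 at -0.64 and Ccdc39 at -0.49. Foxj2 was read by 2 probes at separate places on chromosome 4 of rn4, chr4:159320987-159321046 and chr4:159318705-159318764, whose first 30 bases are shown because they gave different values.
Foxj2 brighter probe: agcaggacaaaggagaagtcatttgtgttg
Foxj2 dimmer probe: ccacctcctggtgccaatgaggagatcact
The brighter probe differed by 0.26 ± 0.19 (SE, limma adjusted p = 0.87). The dimmer probe was at -3.97, -4.57 and -4.49 before and -3.24, -3.43 and -4.03 after heartbeat initiation and differed by 0.77 ± 0.26 (SE, limma adjusted p = 0.50). Its 95% interval was 0.16 to 1.39, and its limma p was 0.021 without adjustment. Both probes were higher after heartbeat initiation, and neither passed the adjusted threshold. Foxj2 is described because its probes were seen to differ.

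Of the FoxO genes, Foxo4 was at -0.14, -0.94 and -0.51 before and -0.23, -0.35 and -0.87 after heartbeat initiation, a log2 difference of 0.05 ± 0.26 (SE). A second, dimmer Foxo4 probe differed by -0.49 ± 0.32 (SE), and neither probe passed (limma, adjusted p = 0.96 and 0.87). Foxo3 was above background on 5 arrays and differed by 0.23. FoxO factors are held out of the nucleus by Akt and, when active, turn on genes of muscle atrophy and stress. In that list 14 of 21 tested genes had higher means and 7 lower, with a median of 0.19 and none called, against 11 and 10 with slide as a block (median 0.06). Trim63, a ubiquitin ligase of striated muscle, was at -4.65, -3.86 and -4.06 before and -3.05, -3.12 and -2.92 after heartbeat initiation. Its difference was 1.16 ± 0.22 (SE, limma adjusted p = 0.15), and it rose by 1.30 with slide as a block (adjusted p = 0.015). Fbxo32, the other atrophy ligase, rose by 0.85 in that fit (adjusted p = 0.045), against 0.53 without slide. Bnip3 and Akt2 differed by 0.44 and 0.40, with groups that did not overlap and adjusted p of 0.42 and 0.65 in limma. Groups did not overlap for 3 of the 21 tested genes of that list, against 11.5% of all tested probes.

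**Figure D4:**
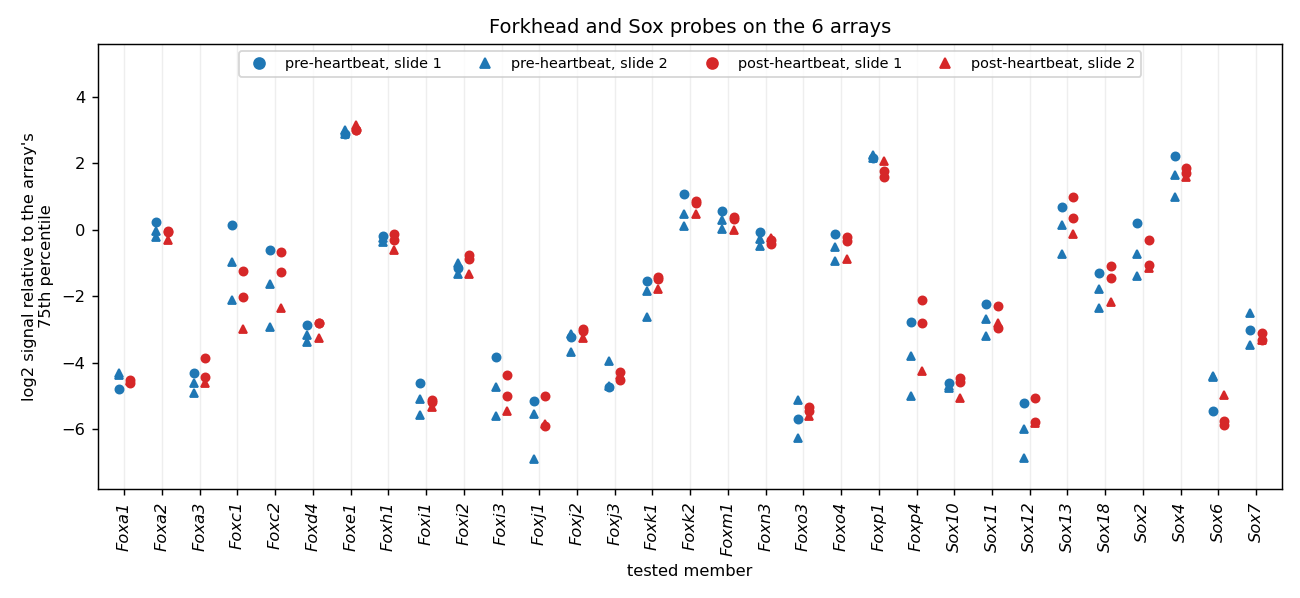
Log2 signal of each tested forkhead and Sox gene relative to the array's 75th percentile (y axis) on the 3 pre-heartbeat (blue) and 3 post-heartbeat (red) arrays, with circles for slide 1 and triangles for slide 2. The colours overlap for every gene except Foxe1 and Foxp1. The fitted signal was higher on slide 1 for 26 of the 31 genes, although circles and triangles interleave for genes such as Foxc1 and Foxa2.

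Among the SoxC genes of progenitor cells, Sox4 was at 2.21, 0.99 and 1.65 before and 1.88, 1.73 and 1.59 after heartbeat initiation, with a log2 difference of 0.11 ± 0.30 (SE, limma adjusted p = 0.92). Sox11, its SoxC relative, differed by 0.01 (95% interval -0.68 to 0.69), and Sox12 by 0.46 ± 0.43 (SE). Sox12 was above background on only 2 of the pre-heartbeat arrays. None of these 3 genes passed the test.

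In the SoxF subfamily, Sox18, which acts in blood and lymph vessels, was at -1.31, -2.35 and -1.78 before and -1.09, -1.46 and -2.16 after heartbeat initiation. The difference was 0.24 ± 0.35 (SE) and it was 1.77-fold brighter on slide 1 (limma, adjusted p = 0.028). Sox7, an early endothelial gene, differed by -0.26 ± 0.25 (SE; 95% interval -0.85 to 0.33). Of 22 listed endothelial and endocardial genes, 21 were found by name and tested, with 7 higher and 14 lower means (median -0.09) and none called. With slide as a block the means of 11 were higher and of 10 lower (median 0.00). Kdr, the main receptor for VEGF, differed by -0.55 ± 0.14 (SE, limma adjusted p = 0.28), Fli1 by -0.70 and Erg by -0.60. These genes were picked by their small p, and for each of them the groups did not overlap. Groups did not overlap for 4 of the 21 tested genes of the list, against 11.5% of all tested probes. With slide as a block 1 gene fell, Cldn5, a tight junction protein of endothelium, by 0.93 on the log2 scale (adjusted p = 0.043).

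Sox6, a SoxD factor of muscle and cartilage described here because of its p with slide as a block, had the largest negative difference after Foxc1. It was at -5.46, -4.41 and -4.44 before and -5.75, -5.87 and -4.98 after heartbeat initiation, and the groups overlapped. It was above background on 3 pre-heartbeat and 2 post-heartbeat arrays, so it was tested through the group in which it was brighter. The difference was -0.76 ± 0.36 (SE, limma adjusted p = 0.80), -0.45 with slide as a block (adjusted p = 0.22) and -0.29 with normexp background. It was the only tested member called higher on slide 2. Its SoxD relative Sox13 differed by 0.37 ± 0.41 (SE).

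Sox10, a SoxE factor of neural crest, was at -4.63, -4.71 and -4.78 before and -4.59, -4.46 and -5.07 after heartbeat initiation. The difference was 0.00 ± 0.19 (SE; 95% interval -0.45 to 0.44). Of 12 tested genes of neural crest, 4 had higher and 8 lower means (median -0.29), and none was called. Snai2, a gene of delaminating crest and mesenchyme, was at -3.33, -3.24 and -2.87 before and -4.87, -4.63 and -4.06 after heartbeat initiation, a difference of -1.37 ± 0.25 (SE, limma adjusted p = 0.12). It fell by 1.21 on the log2 scale with slide as a block (adjusted p = 0.022). Erbb3 and Msx2 differed by -0.46 and -0.40.

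Sox2, the SoxB1 factor of neural plate and foregut, was at 0.22, -1.38 and -0.73 before and -0.32, -1.06 and -1.14 after heartbeat initiation. The groups overlapped, and the difference was -0.21 ± 0.42 (SE, limma adjusted p = 0.90), or -0.49 with slide as a block (adjusted p = 0.74). A second Sox2 probe gave -0.36 ± 0.44 (SE). The list of neural plate genes contained the only list gene that fell without slide, Otx2, a factor of anterior neuroectoderm and endoderm. It was at 2.61, 2.57 and 2.73 before and 1.09, 0.96 and 1.19 after heartbeat initiation, a log2 difference of -1.56 ± 0.14 (SE, limma adjusted p = 0.020). Hesx1, another anterior gene, differed by -1.56 ± 0.23 (SE, limma adjusted p = 0.083) and fell by 1.65 on the log2 scale with slide as a block (adjusted p = 0.017). Of the 11 tested genes of that list, 6 had higher and 5 lower means, against 4 and 7 with slide as a block.

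Other neural genes were high on single arrays. Foxb1, a factor of the caudal neural tube, was above background on pre-heartbeat array 1 (-3.80) and post-heartbeat array 1 (-4.42), both on slide 1, and on the other 4 arrays it lay between -8.49 and -7.94. A second Foxb1 probe was not above background on any array, at -8.37 and -8.11 on the same arrays, and did not show this signal. Each of the Foxb1 probes was a single spot on the array. En1, of the midbrain and hindbrain, was at -4.89 on pre-heartbeat array 1 and -6.32 on post-heartbeat array 1. The same arrays were thus the highest of their groups for Foxb1 and En1, which were described after their values were seen. That rank was common: pre-heartbeat array 1 was the highest of its group for 71% of tested members and 31.5% of all tested probes. For post-heartbeat array 1 these shares were 67.7% and 41.2%. Whether neural tissue was taken along with these samples was not tested.

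**Figure D5:**
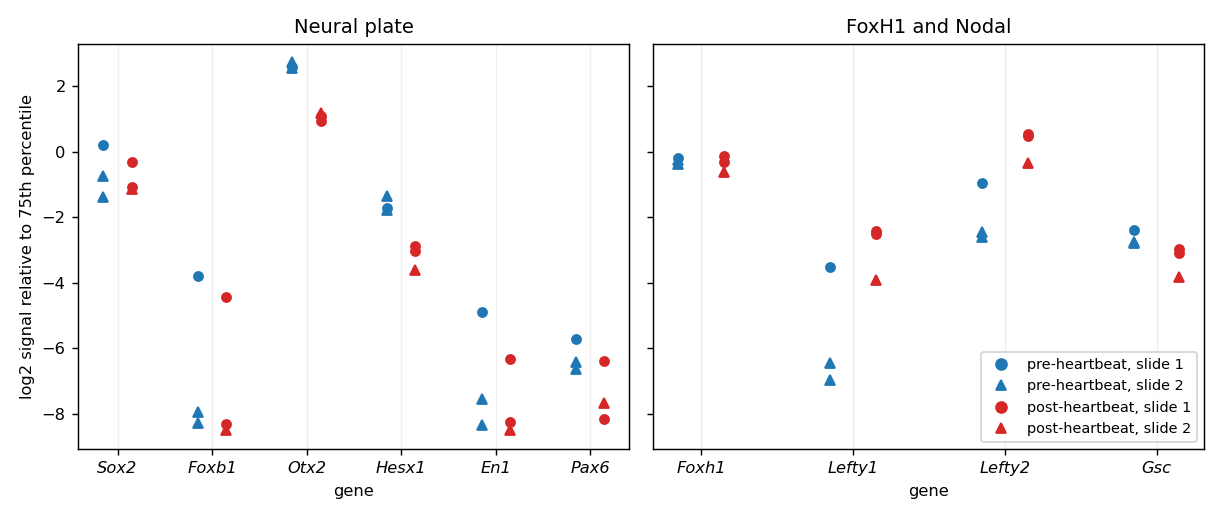
Log2 signal relative to the array's 75th percentile on the 6 arrays for genes of the neural plate (left) and of the FoxH1 and Nodal list (right), coloured by group and shaped by slide. Otx2 separates the groups, Foxb1 and En1 are highest on array 1 of each group, and Lefty2 separates the groups while Foxh1 overlaps.

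More members were called between slides than between groups. Of 31 tested members, 26 were brighter on slide 1, and 6 of them passed an adjusted p of 0.05 in that direction, namely Foxc1, Foxc2, Foxi3, Foxo4, Foxp4 and Sox18, against 8.75% of all tested probes (16.3% in either direction). The median log2 difference of slide 2 less slide 1 was -0.45 for the members and 0.07 for all tested probes. Within the pre-heartbeat group, 20 of 31 members (64.5%) ranked array 1 above array 3 above array 2, against 20.4% of all tested probes. The median GC content of the probes was 45% for the tested members, 48.3% for the 6 called higher on slide 1 and 45% for all tested probes. Over all tested probes, the median log2 difference of slide 1 less slide 2 was 0.08 for those with 55% GC or more and -0.09 for the rest. The part of GC content in the difference between slides was not tested.

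Lists of neighbouring tissues moved with slide as well. Of all 19299 tested probes, 1688 (8.75%) were called higher on slide 1 and 1460 on slide 2. In the second heart field and pharyngeal mesoderm list 7 of 16 tested genes were called higher on slide 1 and 2 on slide 2. For the endoderm list these counts were 6 and 1 of 18. They were 3 and 2 of 12 for neural crest, and 2 and 3 of 21 for the endothelial and endocardial list. In the neural plate list 5 of 11 were called higher on slide 1, and in the paraxial mesoderm list 4 of 10, with none higher on slide 2 in either. No gene of the 18 mitotic targets was called in either direction, and of the 22 genes of cardiac muscle cells 1 was called higher on slide 1 and 2 on slide 2. Averaged over the tested second heart field genes, log2 signal reached -2.42, -3.13 and -2.93 before and -2.26, -2.68 and -3.13 after heartbeat initiation, with the slide 1 arrays higher. In the groups themselves, 10 of these 16 genes had higher means after heartbeat initiation (median 0.34), against 8 of 16 with slide as a block (median 0.03). The ligand Wnt11 differed by 1.20 ± 0.21 (SE, limma adjusted p = 0.11) and rose by 1.17 with slide as a block (adjusted p = 0.041), while Eya1 and Isl1 differed by -0.85 and -0.43. Among 10 tested paraxial genes 8 had higher means (median 0.29). Dll3, a Notch ligand of the somites, differed by 1.13 ± 0.19 (SE, limma adjusted p = 0.11) and rose by 1.21 with slide as a block (adjusted p = 0.023). Pax1 differed by 1.19 and Tbx6 by 0.58, and neither was called in either fit. The part of these tissues in the difference between slides was not tested.

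The erythroid list served as a check for blood cells. Of 11 tested genes 9 had higher means after heartbeat initiation (median 0.72), and none was called without slide. Blocking on slide, 2 were called higher, Epor by 1.18 and Hbg1 by 0.74 (limma, adjusted p = 0.040 and 0.042). Hbg1 was above background on only 2 of the pre-heartbeat arrays and entered the tests through the group in which it was bright. Its difference is therefore set partly against signal not above background and is given as a value only. Without slide, Epor, the erythropoietin receptor, differed by 1.26 ± 0.22 (SE, limma adjusted p = 0.12), Hbg1 by 0.78 and Hbb by 1.22, with groups that did not overlap for any of the 3. Groups did not overlap for 5 of the 11 tested genes of the list, against 11.5% of all tested probes.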

How the data were processed

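Gene expression was measured on 1-colour Agilent arrays in 6 samples of E10 heart primordium, 3 in each group, grouped by their labels. Per the labels and file headers, intensity values were extracted by the authors with Agilent Feature Extraction 10.7.3.1, and the deposited processed signal is background-subtracted. The deposited ratio values are each probe's intensity relative to a per-probe baseline, and served as an alternative. The methods name the median over all samples as that baseline, but the median log2 ratio of the 6 arrays lay within 0.01 of 0 for only 3.81% of probes. The array annotation uses rn4.

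Spots were averaged per probe on the log2 scale without control and outlier spots, after subtracting log2 of each array's 75th percentile over all non-control spots. That percentile was 1146 to 1702 intensity units. No spot was saturated. A probe was above background if at least 0.5 of its spots were. Differences were tested with limma 3.58.1 in R 4.3.3, with Benjamini-Hochberg adjustment over 19299 tested probes, and the pipeline was tested on simulated data. Exact permutation tests served for single genes. The number of arrays limits the precision.

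The members and gene lists were chosen with earlier results of these data known. Values are given in full for selected members of known cardiac, endodermal, vascular or neural roles, and for each list for genes past the adjusted threshold, otherwise for the 3 with the smallest p. Genes called with slide as a block were added. Foxe1, Foxj2, Sox6, Foxb1 and En1 and the pair of Foxc1 and Foxc2 were described after their values were seen. Listed genes without a matching name were not analysed here, and the values of 2 genes are not reported here. Alternatives were quantile normalization, another percentile set, normexp background with an offset of 50, the authors' ratios, filters, slide and replicate blocks, the methods' t-test, an intensity trend, the mean of a gene's probes and leaving out each array. The difference of Foxc1 and Foxc2 was recomputed as an alternative chosen after seeing the data.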

Additional observations from a re-analysis of the deposited data

How the results depend on the processing

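The count of members called higher or lower was 0 under every alternative run. The count of members at an unadjusted p under 0.05, 0 as reported, was 2 with slide as a block (Foxc1 and Sox6), 2 with the replicate block, 1 with an intensity trend (Foxp1), 1 with the mean of a gene's probes (Foxj2) and between 0 and 2 when single arrays were left out. The sign of the difference turned for 7 of 31 members with slide as a block for 4 with normexp background, and for up to 10 when single arrays were left out (10 without pre-heartbeat array 2 and 7 without pre-heartbeat array 1), none of them past the test. Over all probes, 23 were higher and 4 lower as reported. Higher probes numbered 11 with quantile normalization, 43 with normexp background, 10 with the authors' ratios, 1 without the background filter, 223 with slide as a block, 95 with the replicate block, 0 with the methods' t-test, 38 with an intensity trend and 0 to 1 without single arrays. Lower probes numbered 7 with normexp background, 0 without the background filter, 89 with slide as a block, 49 with the replicate block, 0 with the methods' t-test, 7 with an intensity trend and 0 to 1 without single arrays. List genes called went from 4 higher and 1 lower to 18 and 6 with slide as a block. The 18 include Lefty1 and Hbg1, which entered the tests through the group in which they were bright. The cause of these shifts was not tested.

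The labels name nothing that samples of the same number shared beyond the number, and whether they shared more is not known here. For numbers 1 and 3 the samples were also on the same slide. The samples numbered 2 were on different slides. The correlation of the deviations from the group means was 0.65, -0.28 and 0.49 for numbers 1, 2 and 3. With the replicate block the smallest adjusted p of a member was 0.32 (Foxc1). Depth in arrays is signal over background, and 22 of 53 members were too dim to test.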
